A study of Mus musculus with 20 samples.

Results

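The stretch of mouse 18S ribosomal RNA from position 1200 to position 1559 was taken by its position numbers in the deposited table, and holds 360 of the 1840 positions listed for that RNA. It includes positions 1247 to 1249, where reverse transcription stopped or misread without any chemical treatment. The study probed RNA in living cells with dimethyl sulfate (DMS) and read the methylated bases in 2 ways, as the fraction of reverse transcription events that stopped at a position and as the fraction that read a position as a mutation. All RNA came from female mouse embryonic fibroblasts (MEFs) of the F1 strain 129S1/CastEiJ x 129S1. DMS libraries came from cells given 0.5% DMS for 5 min at room temperature, and untreated libraries from cells without it. RNA of every group was extracted from the pellet left after Dounce homogenisation, and the supernatant was discarded, so RNA in it did not reach the libraries.

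Of the 20 libraries used, 16 carry a letter in their labels. These are 8 untreated and 8 DMS libraries, made with reverse transcription labelled SSIII (55 °C), AMV (42 °C), TGIRT-II (60 °C) or Zhao, a label that the sources used here do not explain. The other 4 libraries were labelled SSIII without a letter, 1 untreated and 1 DMS library in each of 2 settings, without and with Mn2+. The deposited table pairs each DMS library with its control, which gave 8 pairs of lettered libraries (pairs 1 to 8). Its library names fall into 4 runs of consecutive numbers, called library sets 1 to 4 here, each with 2 pairs. Set 1 holds pairs 1 and 2, set 2 pairs 3 and 4, set 3 pairs 5 and 6, and set 4 pairs 7 and 8. Which set was made with which enzyme is not given in the sources used here, so no value below is tied to an enzyme. No source says that the pairs came from separate cultures, so p-values measure the spread between these libraries, which may be technical. Untreated stop profiles of the stretch were more alike within a set (Pearson r of log2 values 0.940 to 0.991 over 360 positions) than between sets (0.678 to 0.904), so the 8 pairs are not fully separate replicates. Read depth is unknown, because the table gives fractions only.

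The 18S rRNA is the RNA of the small ribosomal subunit, and its 3′ major domain folds into the head of that subunit, which carries loops that face the transfer RNA in the decoding groove. In human numbering, nucleotide 1248 is a uridine that is converted to a hypermodified pseudouridine, with a methyl and an aminocarboxypropyl group on the base, and such a bulky base is known to hinder reverse transcriptases. DMS methylates the pairing face of adenines and cytosines that are not base paired, and a reverse transcriptase that meets the methyl group either falls off or inserts a wrong base. Mn2+ is known to make reverse transcriptases read through altered bases with more errors. The table names no base and no modification, and without an 18S sequence the place of the stretch in the head and the bases at its positions could not be checked.

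Without DMS, the stretch was dominated by reverse transcription stops at 1247 and 1248. At 1248 the stop fraction of the 8 untreated libraries ranged from 66.2% to 94.9%, with a median of 80.2%. At 1247 it ranged from 13.1% to 74.4%, with a median of 47.5%. The libraries divided at 1247 by set: the 4 untreated libraries of sets 1 and 2 lay between 67.4% and 74.4%, and those of sets 3 and 4 between 13.1% and 27.7%, with no overlap. Stops went on into 1246, at 12.2% to 19.5% with a median of 15.2%, and were much rarer at 1249, at 2.40% to 3.11%, and at 1245, at 0.488% to 5.28%. The next highest untreated stop fractions of the stretch were at 1252 (median 2.29%) and 1403 (median 2.17%).

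The highest mutation fractions without DMS were at 1248, although 1247 to 1249 and their neighbours within 2 positions held only 7.77% to 46.2% of the summed mutation fractions of the stretch (median 13.1%). At 1248 the 8 untreated libraries read 8.24%, 8.55%, 5.97%, 4.59%, 30.3%, 45.0%, 32.0% and 38.4% in the order of pairs 1 to 8. All 4 libraries of sets 3 and 4 were above all 4 of sets 1 and 2, the reverse of the order at 1247 stops. At 1247 and 1249 the mutation fraction stayed at or below 0.560% and 0.156%. Stop and mutation fractions at 1248 added up to more than 100% in 11 of the 16 lettered libraries, 5 untreated and 6 DMS. The 2 fractions are thus not exclusive parts of the same total there.

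**Figure D1:**
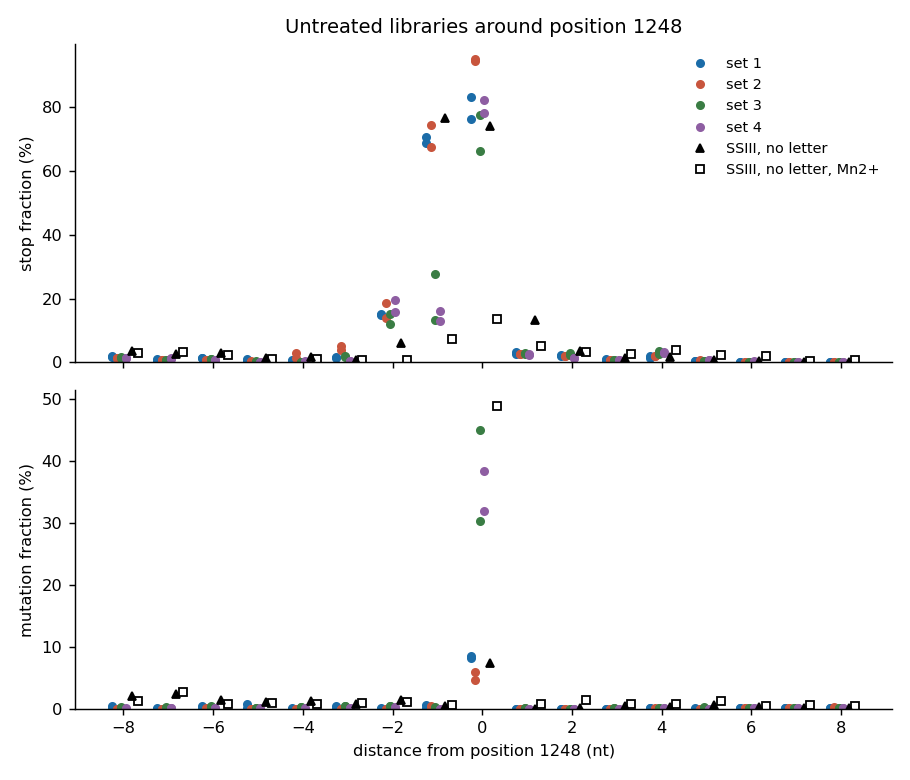
Stop (upper panel) and mutation (lower panel) fractions in percent, plotted against distance in positions from 1248 for the untreated libraries, each point being 1 library, coloured by library set or drawn in black for the libraries without a letter. Stops peak at 1248 in the 8 lettered libraries (66.2% to 94.9%), the points at 1247 divide sets 1 and 2 from sets 3 and 4, and mutations stand out at 1248.

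Away from 1248, the highest untreated mutation fractions were at 1319 (median 2.08%, range 1.61% to 7.70%), 1304 (median 1.55%, range 1.12% to 12.0%), 1323 (median 1.54%), 1337 (median 1.32%) and 1310 (median 0.839%). Among the 8 lettered libraries, the upper ends at 1304, 1310, 1319 and 1323 came from set 3. At 1304 its 2 untreated libraries read 11.6% and 12.0%, against 1.12% to 2.02% in the other 6, and at 1310 they read 5.14% and 5.23%, against 0.611% to 1.02%. Position 1337 did not follow this, since all 8 libraries lay between 1.11% and 1.83%. At 1304, 1310 and 1319 the DMS library was lower than its control in 7 of 8 pairs, but by medians of only 0.380, 0.121 and 0.552 percentage points, and none passed the test across all positions (limma adjusted p 0.120, 0.310 and 0.0695). The untreated library without a letter and without Mn2+ read 6.51%, 5.57%, 7.24% and 3.38% at 1304, 1310, 1319 and 1323. Its DMS library differed by -3.33, -2.82 and -2.64 points at 1304, 1310 and 1319. With Mn2+ these differences were -0.835, -0.500 and -0.698 points, each from 1 library per group.

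Compared with the 1199 positions before it, the stretch had a higher mean untreated stop fraction, 0.779% ± 0.163 against 0.559% ± 0.250 (SD, n = 8 libraries), and was higher in 7 of 8. That difference rested on the natural site: without 1247 to 1249 and their neighbours within 2 positions it turned to -0.186 percentage points, and the difference of the medians was -0.00452. Untreated mutation fractions averaged 0.314% ± 0.206 in the stretch and 0.340% ± 0.199 before it. The mean DMS difference in stops was 0.0781 ± 0.122 in the stretch and 0.0666 ± 0.158 percentage points before it, and was higher in the stretch in 3 of 8 pairs. For mutations it was larger in the stretch in 8 of 8 pairs, at 0.141 ± 0.0480 against 0.0810 ± 0.0544 percentage points, but the difference of +0.0598 turned to -0.00794 without the 10 positions with the highest values and to -0.00667 for medians. The larger mean rise thus rested on few positions.

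With DMS, 30 of the 360 positions rose in stops, 8.33% of them, and 8.33% of all 1776 positions tested rose. Only 1 position, 1228, fell in stops, where 1.63% of all positions fell. In mutations 20 positions rose, 5.56% of the stretch against 4.67% of all 1840 positions tested, and 0 fell with limma (background 0%). At an unadjusted limma p under 0.05, 8 positions of the stretch were lower in mutations, a count not made over all positions. The share of positions that rose in stops was that of the whole RNA. A difference in the same direction in 8 of 8 pairs, upward, was seen at 31 stop positions (6.76% of all positions) and 29 mutation positions (5.82% of all), and the DMS libraries all lay above the untreated ones at 9 (3.21% of all) and 8 (1.09% of all). Lower in 8 of 8 pairs were 1228 and 1247 in stops (2.48% of all) and 1385 and 1458 in mutations (0.435% of all). The calls of risen and fallen positions used limma on log2(percent + 0.1) with the pair as a block and a Benjamini-Hochberg adjusted p under 0.05 over all positions, and log2 changes are on that scale. The median log2 change over the 360 positions was -0.01 for stops and 0.07 for mutations, as it was over all positions.

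The calls depended on which libraries entered. With the 4 set means as replicates limma called 0 positions of the whole RNA in either readout. In the stretch 33 stop positions were then higher and 5 lower at an unadjusted limma p under 0.05. For mutations 26 were higher and 1 lower, and these unadjusted counts were not made over all positions. With the error taken from within sets limma called 50 higher and 5 lower in stops (11.9% and 2.59% of all positions) and 27 higher and 1 lower in mutations (6.52% and 0.109%). The count of risen stop positions was 15, 17, 18 and 19 without pairs 1, 2, 3 and 4, where 86, 98, 94 and 106 of all 1776 rose. That of mutation positions was 13 without pair 1, 2, 7 or 8, where 57, 58, 48 and 40 of all 1840 rose.

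The rises were counted in windows of 60 positions. Stops rose at 2 positions from 1200 to 1259, 7 from 1260 to 1319, 1 from 1320 to 1379, 7 from 1380 to 1439, 10 from 1440 to 1499 and 3 from 1500 to 1559. Mutations rose at 0, 6, 2, 6, 3 and 3 positions in the same windows. The median of the risen stop positions' median differences was 0.255 percentage points, 8 of them exceeded 1 point and 13 were under 0.2. For mutations the median was 0.665 points, with 6 positions over 1 point and 2 under 0.2.

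**Figure D2:**
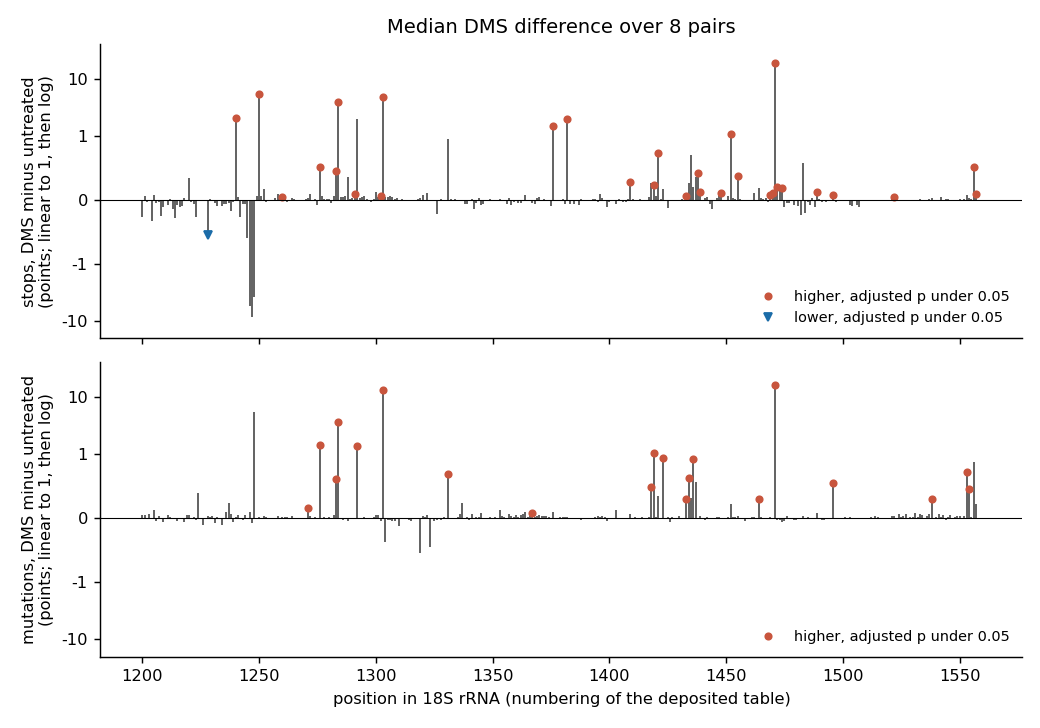
Median DMS minus untreated difference in percentage points over 8 pairs at each of the 360 positions, stops in the upper and mutations in the lower panel, on an axis that is linear near 0 and logarithmic beyond, with called positions marked. Differences over 10 points were reached at 1471 (medians 18.8 for stops and 16.4 for mutations) and, for mutations, at 1303 (12.9).

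Both readouts rose at 8 positions, 1276, 1283, 1284, 1303, 1419, 1433, 1471 and 1496, which are 26.7% of the risen stop positions and 40.0% of the risen mutation positions. Outside the stretch both readouts rose at 35 positions, 29.7% of the risen stop positions and 53.0% of the risen mutation positions there. A total of 42 positions of the stretch rose in at least 1 readout, a count not made outside it. Over the 353 positions outside the natural site and its neighbours, the stop and mutation differences of a pair had a Pearson r with a median of 0.781 over 8 pairs (range -0.125 to 0.898). With the mutations shifted by 1 to 3 positions either way, r stayed between -0.0242 and 0.0416 in every pair, and r was highest with no shift in 6 of 8 pairs. The exceptions were pairs 5 and 6 of set 3, at -0.125 and 0.0301 with no shift. These points share libraries and neighbouring positions, and r is a description. Positions with large differences, such as 1471 and 1303, weigh most in r, and r without them is not given here.

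Position 1471 had the largest rise in both readouts. Its mutation fraction ranged from 0.0529% to 2.56% in untreated libraries, with a median of 0.156%, and from 11.2% to 17.8% in DMS libraries, with a median of 16.98%. The groups did not overlap, the log2 change was 5.40 (SE 0.47, limma adjusted p 0.000952), and the mean rises of sets 1 to 4 were 16.8, 11.4, 14.9 and 17.7 percentage points. In stops the sets spread far more. The untreated libraries had 0.0972% to 5.09% and the DMS libraries 2.53% to 42.0%, the log2 change was 4.66 (SE 0.97, adjusted p 0.0182), and the set means of the rise were 40.8, 27.6, -0.0286 and 10.3 points. The stop response at 1471 differed between sets (limma F-test of the interaction of set and DMS, adjusted p 0.00253), and that of mutations missed the threshold (adjusted p 0.0504). The untreated libraries of set 3 already had stops at 1471, at 5.09% and 3.46%, against at most 0.303% in the other 6 untreated libraries.

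Position 1303 divided the sets the other way in mutations. In set 1 the 2 DMS libraries had mutation fractions of 0.867% and 0.748%, whereas the other 6 had 11.3% to 16.7%, and all 8 untreated libraries were at or below 0.916%. Mutations rose with a log2 change of 4.64 (SE 0.58, limma adjusted p 0.00433) and the set means were 0.674, 11.6, 15.1 and 15.1 points (difference between sets, adjusted p 0.0646). Stops at 1303 rose over the 8 pairs, with the largest difference in set 1, where the mutation rise was smallest. The stop means were 19.5, 6.63, -1.46 and 2.82 points in sets 1 to 4 (log2 change 3.78, SE 0.89, limma adjusted p 0.0285, difference between sets adjusted p 0.00256). Again the untreated libraries of set 3 had stops at this position, 5.97% and 2.04%, against at most 0.129% in the other 6.

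At 1284 both readouts rose in 8 of 8 pairs. Stop fractions were 0.0623% to 1.58% untreated and 2.69% to 6.68% with DMS, with no overlap (log2 change 3.81, SE 0.50, limma adjusted p 0.00169). Sets 1 and 2 gained 5.08 and 6.25 points in stops and 0.642 and 0.365 in mutations, and sets 3 and 4 gained 1.68 and 2.99 in stops and 7.31 and 7.04 in mutations. The difference between sets passed the test in both readouts (adjusted p 0.0494 for stops and 0.0210 for mutations). Position 1292 had the same order, with mutation rises of 0.659, 0.638, 2.56 and 2.84 points (log2 change 2.30, SE 0.30, limma adjusted p 0.00555, no overlap). Its stops differed by 4.15, 5.42, -0.416 and 0.322 points and did not pass the test over all pairs (adjusted p 0.0965), while the difference between sets did (adjusted p 0.0141).

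**Figure D3:**
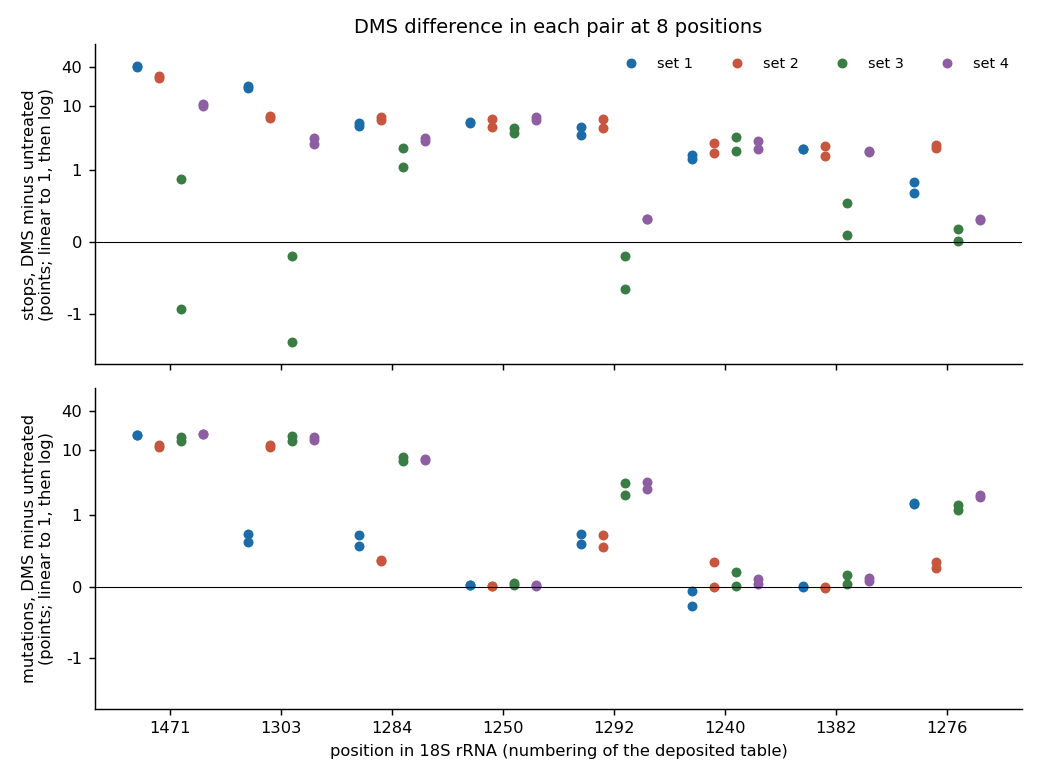
DMS minus untreated difference in percentage points, stops in one panel and mutations in the other, for the leading positions, with 1 point per pair coloured by library set. At 1303 set 1 rose by 19.5 points in stops and 0.674 in mutations on average, and set 4 by 2.82 and 15.1, while at 1471 mutations lie between 11.0 and 17.7 in all 8 pairs.

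The other positions where both readouts rose had smaller changes. At 1276 mutations gained 0.261 to 2.03 points and stops 0.0221 to 2.50, both in 8 of 8 pairs, with the largest stop rise in set 2 (2.34 points) and the smallest mutation rise in the same set (0.302 points). At 1283 mutations gained 0.388 to 0.802 points in 8 of 8 pairs with no overlap of the groups (log2 change 1.62, SE 0.16, limma adjusted p 0.00129). At 1419, 1433 and 1496 the median rises were 0.237, 0.0567 and 0.0762 points in stops and 1.04, 0.305 and 0.545 points in mutations. Stops at 1419 and 1496 and mutations at 1433 rose in 7 of 8 pairs. The median stop rises at 1433 and 1496 were smaller than the 0.1% added before the log. In the pairs without a letter stops differed by -0.0490 and -0.0617 points at 1496 without and with Mn2+, and were higher with DMS at 1419 and 1433. Like 1292, positions 1423 and 1436 rose in mutations without a stop rise called over the 8 pairs, with medians of 0.942 and 0.921 points, and at both the mean rise was lowest in set 2, at 0.204 and 0.0982 points. Fitted alone, sets 1 and 2 called a stop rise at 1423 (limma adjusted p 0.0187 and 0.0303) and set 2 at 1436 (limma adjusted p 0.00206).

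The DMS response differed between sets at 17 stop positions of the stretch (3.43% of all positions tested did) and at 3 mutation positions (0.652% of all). Of the positions called over the 8 pairs, it differed at 9 of 31 in stops and 2 of 20 in mutations, a share not counted for the whole RNA. Fitted alone, sets 1 to 4 called 41, 41, 5 and 15 higher stop positions, where 9.23%, 9.52%, 1.01% and 3.94% of all positions were called, and 19, 4, 12 and 25 higher mutation positions (3.70%, 0.707%, 1.85% and 5.33%). Lower calls numbered 0, 7, 2 and 1 in stops (0.45%, 1.69%, 0.338% and 0.0563% of all positions) and 2, 0, 0 and 0 in mutations (0.272%, 0%, 0% and 0.0543%). In set 3, at an unadjusted limma p under 0.05, 18 stop positions of the stretch were higher and 32 lower. Of these, 5 higher and 2 lower passed the adjustment, and the unadjusted counts were not made over all positions. Stops at 1250, 1409, 1452 and 1556 and mutations at 1283 and 1471 were called in each of the 4 sets. How many positions of the whole RNA were called in each of the 4 sets was not counted.

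Several positions rose in stops without a mutation rise called over the 8 pairs. Position 1250, next to the natural site, had stop fractions of 1.44% to 3.02% without DMS (median 2.09%) and 6.79% to 8.15% with it (median 7.40%), with no overlap. The rise was 5.34 ± 0.952 points (SD, n = 8 pairs, log2 change 1.81, SE 0.16, limma adjusted p 0.000302), and the set means lay between 4.14 and 6.27, with a difference between sets that missed the threshold (adjusted p 0.214). Mutations at 1250 differed by only 0.0170 points on average and did not pass the test (adjusted p 0.0693). At 1240 stops were at 1.31% to 1.99% untreated and 3.23% to 4.68% with DMS (log2 change 1.25, SE 0.14, limma adjusted p 0.000651). Position 1452 rose from a median of 0.259% to 1.35%, by 0.484 to 1.29 points in the 8 pairs (log2 change 1.98, SE 0.18, limma adjusted p 0.000302). At 1376 and 1382 stops rose by medians of 1.50 and 1.99 points, but by only 0.0333 and 0.322 points in set 3. Positions 1409 and 1556, picked after their values were seen because each set called them, had stops of at most 0.0885% and 0.0933% untreated and 0.217% to 0.442% and 0.382% to 4.09% with DMS. The upper end at 1556 came from set 4, which gained 4.01 points against 0.368 to 0.517 in the other sets (difference between sets, limma adjusted p 0.0303). Mutations at 1556 were higher in 8 of 8 pairs, with a median rise of 0.887 points against 0.517 in stops. Fitted alone, set 4 called that mutation rise (limma adjusted p 0.00131), and sets 1 to 3 did not.

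At the natural site itself limma called no change with DMS. Stops at 1247 were lower in 8 of 8 pairs, with a mean difference of -9.06 ± 6.07 points (SD, exact sign-flip permutation test, two-sided p 0.00781, the smallest that 8 pairs can give), but the fit across all positions did not call it (log2 change -0.45, SE 0.14, limma adjusted p 0.0791). Stops at 1248 were lower in 6 of 8 pairs, with a mean difference of -3.19 ± 3.14 points (limma adjusted p 0.701), and mutations there were higher in 6 of 8 pairs, with a mean of +4.25 ± 4.23 points (limma adjusted p 0.148). At 1246 the mean stop differences of sets 1 to 4 were -5.48, -5.79, 2.60 and -5.96 points (limma adjusted p 0.166, difference between sets adjusted p 0.182). At 1249 the median difference was 0.0599 points (limma adjusted p 0.885). The exact sign-flip test gave an unadjusted two-sided p of 0.0469 for stops at 1246 and 1248 and for mutations at 1248. For stops at 1249 it gave 0.766. At 1248 the sign-flip p ranged from 0.0313 to 0.0938 in both readouts when 1 pair was left out.

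**Figure D4:**
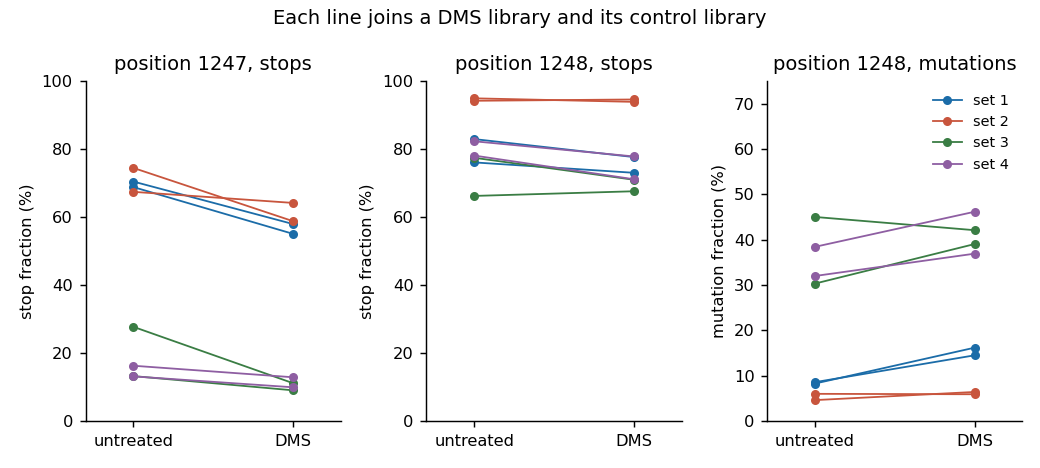
Untreated and DMS fractions in percent at the natural site, with each line joining a DMS library to its control. Stops at 1247 lie lower with DMS in 8 of 8 pairs, whereas the lines at 1248 run in both directions, with 6 of 8 lower for stops and 6 of 8 higher for mutations.

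The 1 position where stops fell was 1228. It had 0.793% to 1.93% stops untreated (median 1.47%) and 0.578% to 0.954% with DMS (median 0.715%), lower in 8 of 8 pairs (log2 change -0.75, SE 0.14, limma adjusted p 0.0115). The pairs without a letter went the other way, from 3.41% to 4.43% without Mn2+ and from 4.29% to 5.76% with it.

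The pair without a letter and without Mn2+ was not used in the fit. There 25 of the 30 risen stop positions and 20 of the 20 risen mutation positions were higher with DMS, against 128 and 178 of all 360 positions. With Mn2+ the counts were 21 of 30 and 20 of 20, against 144 and 205 of 360. Rises of at least 1 percentage point were seen at 22 positions in stops without Mn2+ (8.05% of all 1591 positions compared) and 15 with it (9.81%), and at 20 positions in mutations without Mn2+ (6.10%) and 15 with it (9.49%). Stops were lower by 1 point or more at 8 positions without Mn2+ (4.34% of all) and 9 with it (9.68%), and mutations at 9 positions without Mn2+ (3.02%) and 1 with it (9.05%). Each of these comparisons rests on 1 library per group and has no replicate check. In the Mn2+ libraries 14.4% to 28.4% of the fractions before the stretch were 0, against at most 0.556% in it. The shares over all positions with Mn2+ are therefore not a like background for the stretch.

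The largest gaps between the untreated libraries with and without Mn2+ were at the natural site. Untreated stops at 1248 were 74.1% without and 13.6% with Mn2+, those at 1247 were 76.6% and 7.37%, and those at 1246 were 6.22% and 0.804%. Mutations at 1248 were 7.45% without and 49.0% with Mn2+, which is near the highest lettered untreated library (45.0%). At 1303 the rise with DMS was 20.9 points in stops and 9.39 in mutations without Mn2+, and 8.07 and 19.4 with it. At 1471 the rise was 20.0 and 27.5 points without Mn2+, and 6.83 and 24.5 with it. The stop rise was smaller with Mn2+ at 1284 as well (7.22 and 3.25 points) and at 1250 (6.20 and 3.26 points), where the mutation difference was 0.0481 without Mn2+ and -0.394 with it.

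Away from these positions, stops were more frequent with Mn2+. At 334 of the 360 positions the untreated stop fraction was larger in the library with Mn2+, with a median of 1.19% against 0.215%, and a mean of 1.60% against 0.956%. The mean over the positions before the stretch was 1.52% with and 0.853% without Mn2+, so this gain was not particular to the stretch. Mutations were higher at 191 and lower at 169 positions, with means of 0.944% and 0.915%. In the DMS libraries stops were more frequent with Mn2+ at 332 positions. None of the 360 positions lay in the stretches of the table where many values are 0.

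**Figure D5:**
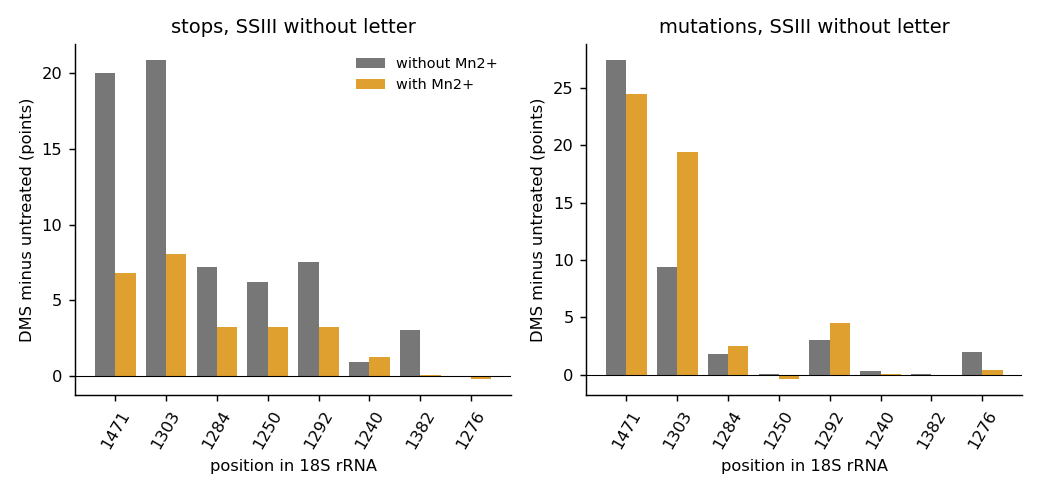
DMS minus untreated difference in percentage points at leading positions in the 2 pairs without a letter, without and with Mn2+, 1 library per group. At 1303 the stop bars stand at 20.9 without and 8.07 with Mn2+ and the mutation bars at 9.39 and 19.4, while at 1471 the stop bars stand at 20.0 and 6.83 and the mutation bars at 27.5 and 24.5.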

How the data were processed

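Per the file headers, the authors deposited a stop fraction and a mutation fraction per library and 18S position, of unknown denominator and depth. The submitters' processing notes name cutadapt and Bowtie2, whose versions and genome build are not given in the sources used here. Deposited fractions were multiplied by 100.

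Each DMS library was paired with the control that the deposited table names for it. Same-pair libraries deviated together from their group means (r 0.233 to 0.693 for stops, 0.140 to 0.667 for mutations), but not within a set (-0.0144 to 0.101 and -0.0335 to 0.0723). limma 3.58.1 in R 4.3.3 (lmFit, eBayes with trend) was fitted to log2(percent + 0.1) with the pair as a block over 1776 stop and 1840 mutation positions with a value in all 16 libraries, and the 360 positions were read from that fit. Single positions were also given an exact sign-flip test (SciPy 1.17.1, Python 3.11.15). The Mn2+ libraries were described without a test. In simulated data with 200 positions changed by a log2 of 2, limma recovered 94.5% for stops and 92.5% for mutations, with 0.526% and 3.14% of calls false. The simulated errors were drawn separately for each pair, without library sets. These rates therefore do not cover errors shared within a set, as the real libraries may have.

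Positions named were the natural site and its neighbours within 2 positions, the 8 largest and 4 lowest called median differences per readout, the 6 highest untreated medians, those called in both readouts (up to 10) and the 6 largest differences with Mn2+. The members and these rules were chosen with earlier results of these data known. The 16 lettered libraries could be matched to untreated or DMS only, so the planned comparison of enzymes was not run, nor was that by base. Another 9 library names in the table were not used. Alternatives were other pseudocounts, percentage points, a difference scaled by the control, a filter on low values, no block, added or left-out pairs, sets left out, set means and error within sets.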

Additional observations from a re-analysis of the deposited data

Results flagged for a closer look

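At 1249 the stop difference of pair 8 was 1.45 percentage points, far from the other 7 pairs, of which the highest was 0.113 and the lowest -0.463. This gap is wider, for the range of the 8 values, than the limit of Dixon’s test. Of 41 groups of 8 values checked this way 1 stood out, where chance gives about 1 in 20.

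The DMS response differed between library sets (limma F-test of the interaction, adjusted p under 0.05) at 17 stop positions and 3 mutation positions of the stretch. The sets may differ in enzyme, and what set them apart was not tested.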

How the results depend on the processing

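The 30 higher and 1 lower stop positions and 20 higher and 0 lower mutation positions were 21, 1, 17 and 0 with no replicate block for the pair. Over all positions, 148, 29, 86 and 0 became 120, 3, 63 and 0. Stops higher were 15 in percentage points, 0 with set means, 50 with the error from within sets, and 8, 11 and 14 without sets 1, 2 and 4. Over all positions these were 72, 0, 211, and 58, 77 and 67. Stops lower were 2 with a filter at a mean of 0.1%, 3 with the pair without a letter added, 0 with set means, 5 with the error from within sets, and 0, 2, 3 and 0 without sets 1 to 4. Over all positions these were 33, 55, 0, 46, and 4, 14, 11 and 3. Mutations higher were 0 with set means and 6 and 7 without sets 1 and 4 (0, 29 and 18 over all). Mutations lower were 1 with the pair without a letter and 1 with the error from within sets (3 and 2 over all). Leaving out each pair gave 15 to 32, 1 to 3, 13 to 20 and 0, and over all positions 86 to 146, 13 to 20, 40 to 77 and 0 to 1.

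The stretch minus the positions before it gave 0.205 to 0.261 (stops) and -0.0346 to -0.0192 points (mutations) untreated, and -0.0361 to 0.0275 and 0.0545 to 0.0654 for the DMS difference, without each pair. Untreated stops turned to -0.00452 for medians, -0.0558 without the 10 highest positions and -0.186 without the natural site. Untreated mutations were -0.0301, -0.0836 and -0.0827 under the same 3 settings. The DMS difference in mutations turned to -0.00667 and -0.00794 under the first 2.

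With minus without Mn2+, mean untreated stops of +0.642 became 1.00 without the 10 largest changes. DMS stops of +0.513 became 0.808 for the median and 0.924 without those 10. Untreated mutations of +0.0293 became 0.00733 and -0.0230, and DMS mutations of +0.0753 became 0.0102 and -0.0374. Why the counts moved was not tested. Depth is unknown, so how precise a single fraction is cannot be given.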

Other observations

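At 1304 stops in the pairs without a letter were higher with DMS by 4.93 points without Mn2+ and 1.91 with it, against -0.0172 to 0.227 points in the 8 lettered pairs. At 1556 mutations differed by 2.48 and 2.15 points on average in sets 3 and 4 and by 0.0194 and 0.0569 in sets 1 and 2, and the test over all pairs did not call the position (limma adjusted p 0.236). At 1298, picked after its value was seen, the untreated stop fraction was 5.16 points higher with Mn2+ than without it, the largest gain of the stretch, each from 1 library.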
